A study of Homo sapiens with 16 samples.

Results

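Abundant structured noncoding RNAs are short RNAs that fold and work inside RNA-protein particles. A set of 7 of their genes is described here: RN7SL1, RN7SL2, RN7SK, RMRP, RPPH1, SNORD3A and SCARNA2, out of 60676 gene identifiers counted in the series. They were chosen by symbol from earlier readings of these same count tables, so their levels are given as descriptions. A stranded total RNA kit was used to make 16 libraries, 8 from A101D and 8 from MeWo, established lines of human melanoma cells. A101D is labelled methionine dependent and MeWo methionine independent. Dependence is the failure of cells to grow when homocysteine, the precursor of methionine, is given in place of it. In the growth protocol, methionine stood at 200 µM in the control condition and homocysteine at 200 µM in the methionine-free one, with cystine at 150 µM. No label ties a medium to a library, so the groups are A101D replicates 1-4, A101D replicates 5-8, MeWo replicates 1-4 and MeWo replicates 5-8, with 4 libraries each, and what separates the replicate sets cannot be told apart here. The labels do not say whether the replicates were separate cultures, so p-values measure the spread between these libraries, which may be technical.

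These RNAs have long-known roles. RN7SL1 and RN7SL2 encode the 7SL RNA, the scaffold of the signal recognition particle that brings ribosomes making secreted proteins to the endoplasmic reticulum, and the Alu repeats of the genome descend from it. RN7SK encodes 7SK, which holds the elongation kinase P-TEFb in an inactive complex. RMRP is the RNA of RNase MRP, which acts in ribosomal RNA maturation, and RPPH1 is the catalytic RNA of RNase P, which trims the 5′ ends of transfer RNA precursors. SNORD3A encodes U3, the box C/D small nucleolar RNA needed for the early cleavages of the ribosomal RNA precursor. SCARNA2 is a Cajal body RNA that guides the modification of spliceosomal RNA. RN7SL1, RN7SL2, RN7SK, RMRP and RPPH1 are transcribed by RNA polymerase III.

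Counts were found for 2 of the 7. RN7SL1 was the gene with the highest mean level of all, at 10026 CPM (counts scaled to a common library size, CPM), and ranked at position 1 in 9 of the 16 libraries. SNORD3A ranked at position 63 by mean level, at 970.2 CPM. RN7SL2, RN7SK, RMRP, RPPH1 and SCARNA2 were listed at 0 counts in every library. A count of 0 allows up to 3 counts, or 0.104 CPM in the shallowest library, and this limit covers counting error only. Per kilobase of annotated exon, the mean level was 33532 CPM for RN7SL1 and 1388 CPM for SNORD3A, whose gene record is 699 bases long although the U3 transcript inside it has 217. The 7 members together took 0.98% to 1.24% of the counts in A101D replicates 1-4, 0.76% to 0.925% in A101D replicates 5-8, 1.48% to 1.68% in MeWo replicates 1-4 and 0.682% to 1.01% in MeWo replicates 5-8.

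The 7SL genes differ by so few bases that a short read can often not be placed. RN7SL1 lies on chromosome 14 (GRCh38, GENCODE v29), inside the span of RPS29, a gene of the opposite strand, with no exon in common. RN7SL2 and RN7SL3, a close copy outside the member set, lie on the same chromosome. Against the RN7SL1 transcript, RN7SL2 had 98.3% identity and RN7SL3 had 97.7%. Of 250 windows of 50 bases along RN7SL1, 158 also occur in RN7SL2 and 39 in no other listed gene. Of 251 such windows of RN7SL2, 34 occur in no other listed gene, and with windows of 100 bases 36 of 201 do. Windows of these lengths were a choice, since the read length is not given in the sources used here. In GENCODE v29, RN7SL2 therefore has stretches of its own, all outside any exon of another listed gene, and no read was counted for it. RN7SL2 does lie inside the span of AL627171.2, a long noncoding RNA gene of the same strand at 0.48 CPM, with no exon in common.

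U3 has the same difficulty. The 217-base U3 transcript of SNORD3A lies at chr17:19188016-19188232 on the plus strand, and it is printed 5′ to 3′ because its likeness to its copies bears on every U3 value, with capitals at the positions where its expressed copies differ.
SNORD3A: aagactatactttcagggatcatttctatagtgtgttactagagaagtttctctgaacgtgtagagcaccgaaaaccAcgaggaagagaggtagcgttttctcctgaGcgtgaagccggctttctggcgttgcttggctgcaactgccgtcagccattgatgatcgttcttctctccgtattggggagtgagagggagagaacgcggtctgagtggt
SNORD3B-1 and SNORD3B-2 both carry A78C and SNORD3C carries G108A, each counted from the 5′ end of this transcript and each the only difference, for 99.5% identity. Of 168 windows of 50 bases, 148 also occur in a U3 copy. With windows of 100 bases, 48 of 118 do.

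RN7SK, RMRP, RPPH1 and SCARNA2 share a position in the GENCODE v29 annotation that RN7SL1, RN7SL2 and SNORD3A do not. Each lies wholly inside the exons of a second listed gene on the same strand. RN7SK, at chr6:52995621-52995948, is covered by another 7SK record of 331 bases, which had 0 counts. RMRP, at chr9:35657754-35658017, is covered by a second RMRP record of 268 bases, which had 1 count over all libraries. RPPH1, at chr14:20343075-20343407, is covered by AL355075.4, which had 2 counts. SCARNA2, at chr1:109100193-109100612, is covered by AL356488.2, which had 11 counts. The covering records therefore held almost no counts.

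The pattern reached beyond these 4 genes. Among small nuclear, small nucleolar, Cajal body and other short structured RNA genes, 315 of 316 that were wholly covered by exons of another gene on the same strand had no count in any library. On the opposite strand the number was 91 of 91. Of genes with no such overlap, 1894 of 4561 (41.5%) had no count, and of those covered in part or in a mixed way, 83 of 160 (51.9%) had none. For small nucleolar RNA genes alone, 151 of 152 covered on the same strand and 322 of 727 without overlap were at 0. Genes at 0 are thus spread over all classes, but those wholly covered were at 0 with 1 exception. The counting rule for reads that fall in 2 genes is not given in the sources used here, and its part in these zeros was not tested. RN7SL2 has no such cover by exons in GENCODE v29, only the span of AL627171.2 around it, and was also at 0. That release holds 96.4% of the counted identifiers, so cover by a gene missing from it could not be seen. The zeros are values of the table and give no level for these RNAs in the cells.

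**Figure D1:**
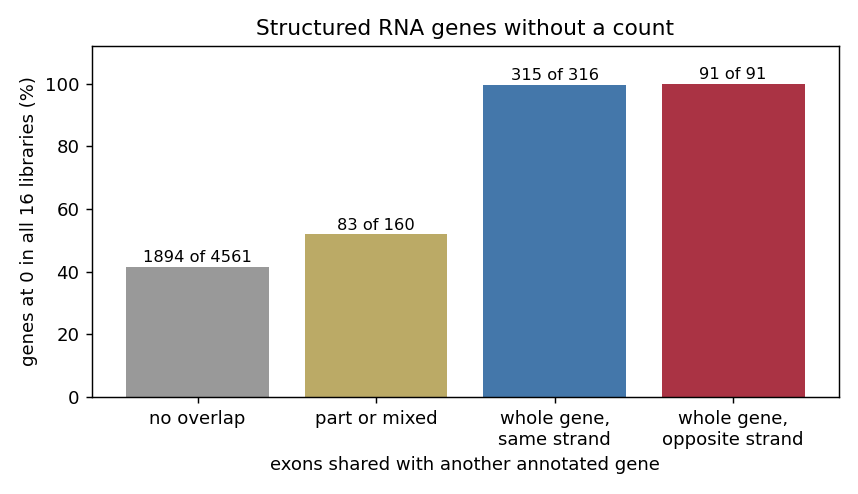
Share of short structured RNA genes with no count in any of the 16 libraries, by how their exons overlap those of another annotated gene. The bars for wholly covered genes reach 315 of 316 and 91 of 91, against 1894 of 4561 without overlap.

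RN7SL1 was high in MeWo replicates 1-4 and lower in the other groups. In MeWo replicates 1-4 its level was 14602, 16859, 15159 and 13607 CPM. In MeWo replicates 5-8 it was 5639, 8904, 7885 and 8046 CPM. No library of the later set reached the lowest of the earlier set, and the mean fell to 0.506 of its size, from 15057 ± 1363 to 7618 ± 1393 CPM (SD, n = 4 each). On the log2 scale of the fit the change was -0.996 with a standard error of 0.14.

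A101D moved the same way by less. Its replicates 1-4 stood at 9417, 12109, 10221 and 9346 CPM, and its replicates 5-8 at 7128, 6059, 7941 and 7496 CPM. These sets did not overlap either, and the change was -0.52 with a standard error of 0.14. The difference between the lines in this change was -0.47 with a standard error of 0.19, and it lay between -0.60 and -0.34 when libraries were left out in turn. MeWo replicate 5 was the lowest library of all, and without it the MeWo change was -0.86. The share of all genes without overlap was not counted for any comparison here, so a lack of overlap is a description only. Of all genes, 65.3% were called between the A101D sets, 13.1% between the MeWo sets and 86.7% between the lines.

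Between the lines, RN7SL1 was higher in MeWo within replicates 1-4, where no library overlapped, by 0.56 on the log2 scale with a standard error of 0.14. Within replicates 5-8 the lines overlapped and the difference was 0.08 with a standard error of 0.14. Pooled over all 8 libraries per line, the A101D levels (6059 to 12109 CPM) lay inside the MeWo range (5639 to 16859 CPM). With upper-quartile factors in place of the main scaling, the line difference was 1.05 (log2) within replicates 1-4 and 0.57 within replicates 5-8. With the main scaling and without MeWo replicate 5, the difference within replicates 5-8 was 0.22. In order of mean level, MeWo replicates 1-4 stood above A101D replicates 1-4 (10274 ± 1286 CPM), and these above MeWo replicates 5-8 and A101D replicates 5-8 (7156 ± 803 CPM), whose last pair did not differ beyond its spread. No p-value is given for RN7SL1, because its level chose it.

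**Figure D2:**
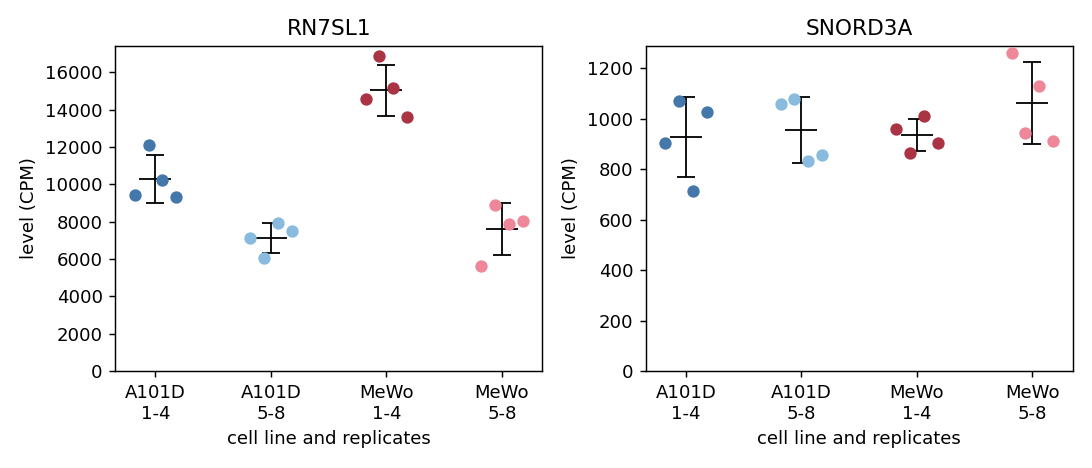
Level in CPM of RN7SL1 and SNORD3A in each library, by cell line and replicate set, with the mean and SD of 4 libraries as bars and each point a library. RN7SL1 in MeWo replicates 1-4 lies between 13607 and 16859 CPM, above all other libraries, while the SNORD3A groups overlap.

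SNORD3A did not pass the test in any of the 6 comparisons with the main scaling. It too was chosen from earlier readings of these count tables, so its adjusted p-values are descriptions only. In A101D replicates 1-4 its level was 904.6, 1068, 714.2 and 1024 CPM, and in replicates 5-8 it was 1059, 1079, 832.3 and 855.8 CPM. In MeWo replicates 1-4 it was 958.1, 864.1, 1012 and 904.9 CPM, and in replicates 5-8 it was 1260, 944, 1130 and 912.7 CPM. All 4 groups overlapped. The change from replicates 1-4 to 5-8 was 0.05 with a standard error of 0.14 in A101D (limma adjusted p = 0.787) and 0.17 with a standard error of 0.14 in MeWo (adjusted p = 0.515). MeWo against A101D gave 0.08 with a standard error of 0.10 (adjusted p = 0.438). With upper-quartile factors SNORD3A was called higher in MeWo (0.58, adjusted p = 0.000121).

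The background for these calls was high. Over the 21569 genes tested, 65.3% were called between the replicate sets of A101D, 29.6% higher and 35.8% lower in replicates 5-8. In MeWo 13.1% were called, 4.59% higher and 8.51% lower. MeWo against A101D called 86.7% of genes over both sets, 41.1% higher and 45.6% lower, with 79.1% in replicates 1-4 and 84.1% in replicates 5-8. The change between sets differed between the lines for 48.5% of genes. The split of directions depends on the scaling: of the genes called in MeWo, 35.0% were higher in replicates 5-8 with the main factors, 66.3% with total counts only and 18.9% with upper-quartile factors. For A101D these shares were 45.2%, 59.5% and 42.0%. Between the lines, upper-quartile factors moved the median of all genes from -0.05 to 0.44 and the share higher in MeWo from 47.4% to 66.2%, so line differences below are to be read against that shift.

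SNORD3A and RN7SL1 kept no fixed ratio. Per 100 RN7SL1 counts, a quantity that no library scaling alters, SNORD3A had 6.99 to 10.96 counts in A101D replicates 1-4 and 10.5 to 17.8 in replicates 5-8. It had 5.13 to 6.68 in MeWo replicates 1-4 and 10.6 to 22.4 in MeWo replicates 5-8, where MeWo replicate 5 was the highest. The MeWo sets did not overlap, and the A101D sets overlapped slightly.

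The copies of 7SL followed 2 patterns. RN7SL3 was higher in A101D: 287.9, 372.6, 281.7 and 291.0 CPM in A101D replicates 1-4 and 299.1, 263.3, 292.6 and 338.7 CPM in replicates 5-8. In MeWo it stood at 200.7, 238.7, 217.8 and 190.2 CPM in replicates 1-4 and at 83.0, 123.7, 123.6 and 123.4 CPM in replicates 5-8. No MeWo library reached an A101D library, and the line difference was -0.97 with a standard error of 0.10 (adjusted p = 4.27e-07), opposite in direction to that of RN7SL1. With upper-quartile factors the difference within replicates 1-4 shrank to -0.04 and was not called. RN7SL3 fell by 0.91 between the MeWo sets (adjusted p = 0.000969). In A101D the change was -0.04 (adjusted p = 0.796), and the difference between the lines was called (-0.87 with a standard error of 0.19, adjusted p = 0.00212).

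RN7SL4P, a 7SL pseudogene with 84.5% identity to RN7SL1, behaved otherwise. Its level was 15.6 to 18.7 CPM in A101D replicates 1-4, 11.6 to 15.01 in A101D replicates 5-8, 19.5 to 29.9 in MeWo replicates 1-4 and 10.7 to 15.1 in MeWo replicates 5-8. It fell by 0.86 between the MeWo sets (adjusted p = 0.00059) and by 0.39 in A101D (adjusted p = 0.0254). The A101D call was lost with total counts only (adjusted p = 0.143), with median-of-ratios factors (adjusted p = 0.0636) and without A101D replicate 2, 5 or 6 (adjusted p from 0.0699 to 0.107).

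Ratios within a library separate these copies without any scaling. Per 100 RN7SL1 counts, RN7SL4P had 0.143 to 0.200 counts across all 16 libraries, with 0.172 ± 0.017 in A101D and 0.173 ± 0.0174 in MeWo (SD, n = 8 each). RN7SL3 had 2.76 to 3.11 in A101D replicates 1-4, 3.68 to 4.52 in A101D replicates 5-8 and 1.37 to 1.57 in all of MeWo. RN7SL3 thus differed between the lines without overlap, and RN7SL4P did not. Reads of RN7SL1 placed on a close copy were not measured.

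**Figure D3:**
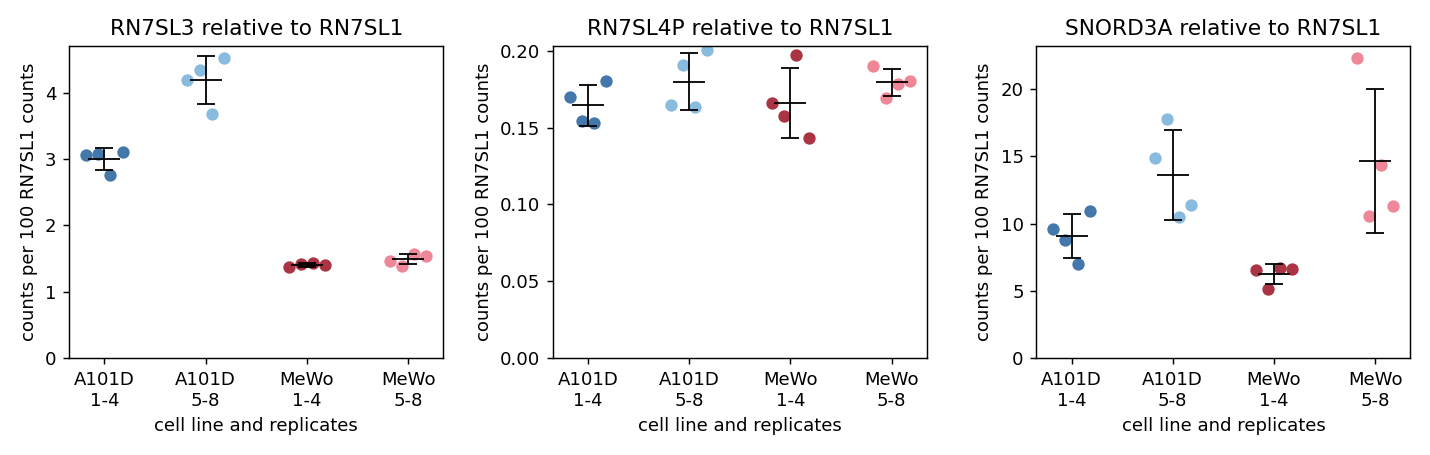
Counts of RN7SL3, RN7SL4P and SNORD3A per 100 RN7SL1 counts in each library, by cell line and replicate set, with the mean and SD of 4 libraries as bars. RN7SL3 lies between 2.76 and 4.52 in A101D and between 1.37 and 1.57 in MeWo, while RN7SL4P lies between 0.143 and 0.200 in all libraries.

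RN7SL471P, named after its values were seen, showed the widest line difference of the 7SL copies described here. It has 75.6% identity to RN7SL1 and lies outside the span of any annotated gene at chr6:28977475-28977773. Its level was 76.98 to 119.5 CPM over the A101D libraries, against 13.6 to 23.5 CPM over those of MeWo, a line difference of -2.43 with a standard error of 0.05 (adjusted p = 4.37e-34). It fell between the sets by 0.37 in A101D (adjusted p = 5.91e-08) and by 0.56 in MeWo (adjusted p = 2.34e-06), the 2 lines overlapping nowhere. RN7SL5P, at 0.551 to 1.91 CPM, fell by 0.68 in A101D (adjusted p = 0.00332) and by 1.11 in MeWo (adjusted p = 8.1e-05).

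Of 678 7SL copies by symbol, 436 had a count and 36 passed the filter on low counts. Of these 36, 11 were higher and 9 lower in MeWo than in A101D, with 86.7% of all genes called. In A101D replicates 5-8, 3 were higher and 7 lower, with 65.3% of all genes called. In MeWo 5 were called, each lower, a share near the 13.1% called over all genes. Copies that passed only where they were high had to differ, so these counts describe the tested copies alone. Summed over all copies, the level was 461.8 ± 38.5 and 422.5 ± 37.0 CPM in the A101D sets and 292.6 ± 24.3 and 174.5 ± 23.4 CPM in the MeWo sets (SD, n = 4 each). RN7SL1 counts outnumbered the copies in every library. With all copies added to RN7SL1, its change was -0.99 in MeWo and -0.50 in A101D, close to the values for RN7SL1 alone. The copies held few counts beside RN7SL1, so adding them could move these values only a little. Such a sum does not measure reads with several placements.

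**Figure D4:**
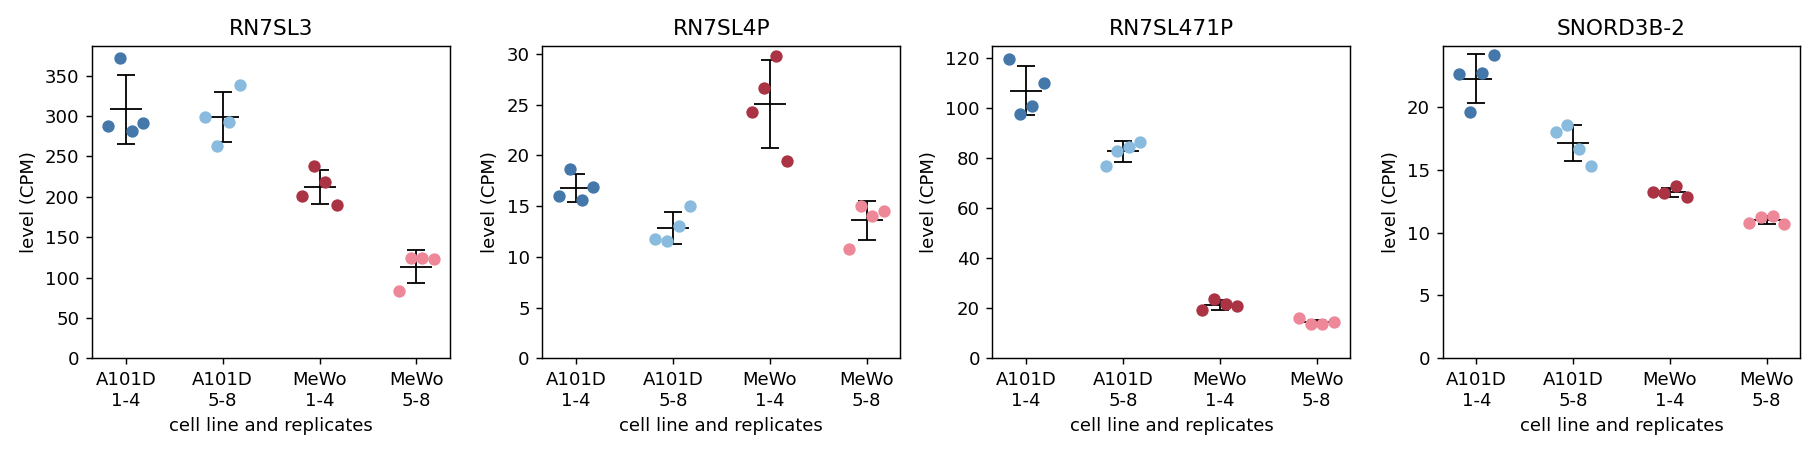
Level in CPM of RN7SL3, RN7SL4P, RN7SL471P and SNORD3B-2 in each library, by cell line and replicate set, with the mean and SD of 4 libraries as bars. RN7SL471P lies between 76.98 and 119.5 CPM in A101D and between 13.6 and 23.5 CPM in MeWo.

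The U3 copies were low beside SNORD3A. SNORD3B-2 stood at 15.3 to 24.2 CPM in A101D and, without overlap, at 10.7 to 13.7 CPM in MeWo, a difference of -0.69 with a standard error of 0.05 (adjusted p = 2.6e-17). It fell between the sets by 0.38 in A101D (adjusted p = 8.17e-07) and by 0.27 in MeWo (adjusted p = 0.012). The MeWo call was lost with total counts only (adjusted p = 0.0715) and with no low-count filter (adjusted p = 0.0807). SNORD3B-1 stood at 5.42 to 8.12 CPM over the 16 libraries. Its line difference averaged 2 called differences of opposite sign: 0.24 in replicates 1-4 (adjusted p = 0.0257) and -0.24 in replicates 5-8 (adjusted p = 0.023). The average was 0.00 with a standard error of 0.07 (adjusted p = 0.983). The call in replicates 1-4 was lost without A101D replicate 4 or MeWo replicate 4 (adjusted p from 0.0739 to 0.0869). The call in replicates 5-8 was lost without A101D replicate 5, 6 or 7 or MeWo replicate 7 (adjusted p from 0.0644 to 0.108). With upper-quartile factors the log2 difference of SNORD3B-1 in replicates 5-8 changed sign, to 0.25. Its change between sets differed between the lines (-0.48 with a standard error of 0.14, adjusted p = 0.00372). It fell between the MeWo sets by 0.30 (adjusted p = 0.0325), a call lost with total counts only (adjusted p = 0.118), with no low-count filter (adjusted p = 0.151) and without MeWo replicate 2, 3, 4, 6 or 7 (adjusted p from 0.0521 to 0.14). SNORD3C, at 0.799 to 2.62 CPM, was not called in any comparison. Per 100 SNORD3A counts, SNORD3B-2 had 1.70 to 3.18 in A101D and 0.854 to 1.52 in MeWo. The records of these copies run over 581 to 791 bases, longer than the U3 transcript.

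Pseudogenes of 7SK carried the only 7SK counts. Of 293 by symbol, 184 had a count and 21 passed the filter. RN7SKP255, with 81.1% identity to RN7SK, had the highest level of those described: 10.6, 4.45, 3.81 and 6.26 CPM in A101D replicates 1-4 and 3.18, 3.35, 2.92 and 8.17 CPM in replicates 5-8. In MeWo it ran from 1.66 to 5.88 CPM. It was not called between the lines (-0.31 with a standard error of 0.32, adjusted p = 0.374). Summed over all 293, the level reached 56.9 CPM in A101D replicate 1, 38.8 in replicate 4 and 47.1 in replicate 8, against 20.3 to 25.6 in the other A101D libraries and 18.02 to 33.96 in MeWo. The libraries with high sums belong to both replicate sets. Of 279 windows of 50 bases along RN7SK, 215 also occur in a 7SK pseudogene. The pseudogenes of RMRP (1) and RPPH1 (2) had no counts.

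Beside the members, 38 further structured RNA symbols were looked up, of which 37 were found and 22 passed the filter. The highest were RN7SL3 (above), SNORA73B and SCARNA7. SNORA73B, a box H/ACA small nucleolar RNA in the span of SNHG3 and RCC1, ran from 63.2 to 103.5 CPM across the A101D libraries, and from 85.9 to 134.1 CPM across those of MeWo. It fell between the sets in A101D (by 0.44, adjusted p = 0.0033) and in MeWo (by 0.37, adjusted p = 0.036), and was higher in MeWo by 0.47 (adjusted p = 5.5e-05). The call between the MeWo sets was lost with total counts only (adjusted p = 0.065), with no low-count filter (adjusted p = 0.0545) and without MeWo replicate 1, 2, 3, 5, 6, 7 or 8 (adjusted p from 0.0528 to 0.102). SNHG3 and RCC1, on the same strand as SNORA73B, were also higher in MeWo, by 0.95 and 0.67. They changed by -0.60 and -1.41 between the A101D sets and by 0.10 and -0.14 between the MeWo sets. SCARNA7, a Cajal body RNA within KPNA4, ran from 80.99 to 113.7 CPM across A101D and from 74.9 to 88.2 CPM across MeWo, a log2 difference of -0.29 (adjusted p = 1.09e-10). With upper-quartile factors SCARNA7 reversed between the lines, to 0.21. KPNA4, on the same strand, differed between the lines by -0.26 with the main scaling. Between the A101D and the MeWo sets KPNA4 changed by -0.14 and -0.10, and SCARNA7 by 0.26 and 0.13. The part of these spanning genes in the values of the small RNAs was not tested. Of all 22, 4 were higher and 5 lower in A101D replicates 5-8, where 65.3% of all genes were called. In MeWo replicates 5-8, where 13.1% of all genes were called, 8 were called, each lower. The median in MeWo was -0.28 against -0.02 for all genes. With total counts only, 1 was higher and 4 were lower there. These 22 include the 7SL and U3 copies.

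The protein partners of 7SL were tested next, from a list of 8. Counts of called genes in this and the following lists stand against the shares called over all genes. These were 65.3% between the A101D sets, 13.1% between the MeWo sets and 86.7% between the lines. No set test was run. SRP68 binds 7SL in the particle, and SRPRA is the receptor subunit that docks it at the membrane. MeWo had more SRP68 (125 ± 7.42 against 50.5 ± 2.29 CPM, SD, n = 8 each, log2 difference 1.30, adjusted p = 4.44e-35) and less SRPRA (56.6 ± 4.26 against 155 ± 24.6 CPM, difference -1.44, adjusted p = 2.61e-37). Between the lines 4 were higher and 3 lower in MeWo, and 6 and 2 with upper-quartile factors. In A101D replicates 5-8, 1 was higher and 6 were lower than in replicates 1-4. SRP19, an assembly protein, rose by 0.35 (adjusted p = 1.42e-07), and SRP54, the protein that binds the signal peptide, fell by 0.44 (adjusted p = 7.54e-12). In MeWo 3 were called, each lower, with SRP72 falling by 0.17 (adjusted p = 0.00373). The median of the list was -0.26 in A101D and -0.10 in MeWo, against -0.05 and -0.02 for all genes.

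Of 7 proteins of the 7SK particle, limma-voom called 6 between the A101D sets and 0 between the MeWo sets, where limma-trend called 0 and 0 had an unadjusted p under 0.05. HEXIM1, the inhibitor of P-TEFb, rose from 36.6 ± 0.969 to 88.3 ± 11.3 CPM in A101D (log2 change 1.26 with a standard error of 0.07, adjusted p = 1.6e-14). In MeWo HEXIM1 stood at 67.5 ± 2.12 and 68.5 ± 4.63 CPM, and the change differed between the lines (adjusted p = 3.73e-11). MEPCE, which caps 7SK, fell from 112.1 ± 1.32 to 75.01 ± 0.781 CPM in A101D (adjusted p = 4.97e-17), and LARP7, which binds its 3′ end, fell by 0.23 (adjusted p = 0.000324, lost with total counts only at adjusted p = 0.261). In A101D 4 of the 7 were higher and 2 lower, with a median of 0.32. In MeWo the changes of MEPCE and LARP7 were -0.01 (adjusted p = 0.943) and 0.05 (adjusted p = 0.636). Between the lines 3 were higher and 2 lower in MeWo, with LARP7 higher by 0.44 and CCNT1, a cyclin of P-TEFb, lower by 0.71 (adjusted p = 5.08e-22). With upper-quartile factors 5 were higher and 1 lower, and MEPCE, at -0.47 with the main scaling, stood at 0.03.

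Of 12 proteins of RNase P and RNase MRP, 6 were higher and 3 lower in A101D replicates 5-8, with a median of 0.34. Over all genes 29.6% were called higher and 35.8% lower there. RPP14 rose from 20.8 ± 0.901 to 36.6 ± 1.69 CPM (adjusted p = 3.55e-17) and RPP30 fell from 27.3 ± 1.14 to 15.1 ± 0.776 CPM (adjusted p = 3.04e-17). In MeWo 0 of 12 were called by limma-voom or limma-trend, with 1 higher and 1 lower at an unadjusted p under 0.05, and 2 were called higher with total counts only. Between the lines 4 were higher and 7 lower in MeWo, which turned to 9 and 2 with upper-quartile factors. RPP30 was higher by 0.89 and POP7 lower by 0.86 (adjusted p = 2.51e-26).

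Among U3 partners, most of the genes called were lower in replicates 5-8. In A101D 9 of 11 were lower and 1 was higher, with a median of -0.46, and the count of lower ones ran from 7 to 10 over the scalings. NOP56, a core box C/D protein, fell from 181 ± 4.27 to 93.2 ± 1.32 CPM (adjusted p = 1.75e-25). FBL, the methyltransferase of these particles, which uses S-adenosylmethionine, fell from 69.8 ± 2.49 to 36.9 ± 2.36 CPM (adjusted p = 1.05e-20). IMP3, which joins U3 to its pre-ribosomal RNA target, rose by 0.24 (adjusted p = 0.000138). In MeWo 7 of 11 were called, each lower, with a median of -0.14 and 5 to 8 lower over the scalings. There NOP56 fell by 0.26 (adjusted p = 3.54e-07) and FBL by 0.19 (adjusted p = 0.00624). The change of FBL differed between the lines (0.73 with a standard error of 0.07, adjusted p = 3.49e-12). SNORD3A itself was not called in either line. Between the lines NOP56 was higher in MeWo by 1.27 and UTP3 lower by 0.62, with 5 higher and 5 lower in all, or 10 and 1 with upper-quartile factors.

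Cajal body and telomerase-type particle proteins were lower in A101D replicates 5-8 for 8 of 9, with 1 higher. Over the scalings 5 to 8 were lower. DKC1, the pseudouridine synthase of box H/ACA particles, fell from 178 ± 4.69 to 109 ± 3.23 CPM (adjusted p = 2e-19), and NOP10, of the same particle, rose by 0.31 (adjusted p = 1.11e-09). DKC1 was also the 1 member of this list called in MeWo, where it fell by 0.26 (adjusted p = 2.32e-05). Between the lines 3 were higher and 4 lower in MeWo, or 9 and 0 with upper-quartile factors, among them GEMIN2, an SMN complex protein, higher by 1.13, and NOP10, lower by 0.34 and at 0.16 with upper-quartile factors.

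RNA polymerase III makes 5 of the 7 members. Of its 13 subunit genes, 7 were higher and 3 lower in A101D replicates 5-8, where 29.6% of all genes were higher and 35.8% lower. The counts were 10 and 2 with total counts only, or 3 and 3 with upper-quartile factors. The largest fall was in POLR3K, from 26.4 ± 1.496 to 11.1 ± 0.706 CPM (adjusted p = 1.06e-20), while POLR3D rose by 0.43 (adjusted p = 3.52e-12). In MeWo 1 was higher and 6 were lower, or 2 and 3 with total counts only: POLR3K fell by 0.27 (adjusted p = 0.000968) and POLR3GL, an alternative to POLR3G, rose by 0.33 (adjusted p = 0.00441). Between the lines 5 were higher and 7 lower in MeWo, or 8 and 4 with upper-quartile factors, with POLR3G higher by 1.01 and CRCP lower by 1.03 (adjusted p = 8.21e-31).

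Of 19 initiation factors of the polymerase, 4 were higher and 9 lower in A101D replicates 5-8, where 65.3% of all genes were called. With total counts only the counts were 10 and 7. BRF2, the factor of 7SK-type promoters, rose from 8.47 ± 0.726 to 14.7 ± 1.52 CPM (adjusted p = 2.65e-12), and GTF3C5, a TFIIIC subunit, fell from 57.7 ± 2.17 to 34.2 ± 1.18 CPM (adjusted p = 1.63e-18). In MeWo 1 was higher and 4 were lower, or 0 and 7 with upper-quartile factors, with GTF3C1 falling by 0.24 (adjusted p = 5.82e-05). SNAPC2 rose there by 0.16 (adjusted p = 0.0257), a call lost with upper-quartile factors (adjusted p = 0.173) and without MeWo replicate 1, 3, 5 or 7 (adjusted p from 0.0503 to 0.117). MAF1, the repressor of the polymerase, changed by -0.01 in A101D (adjusted p = 0.87) and 0.00 in MeWo (adjusted p = 0.959), and it was higher in MeWo than in A101D by 0.18 (adjusted p = 7.64e-08). Between the lines 9 were higher and 9 lower, or 13 and 2 with upper-quartile factors. GTF3A, the 5S gene factor, was higher in MeWo by 1.23 and SNAPC1 lower by 0.70.

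Of 5 genes in a list named for RNA chaperones, 2 were higher and 1 lower in A101D replicates 5-8. The counts were 4 and 1 with total counts only or median-of-ratios factors, and 1 was higher and 1 lower in MeWo. TRIM21 is on this list but is not an RNA chaperone. SSB, the La protein that protects the 3′ ends of polymerase III transcripts, fell from 123 ± 3.94 to 89.3 ± 5.51 CPM in A101D (adjusted p = 9.59e-13) and by 0.13 in MeWo (adjusted p = 0.0378). The MeWo call was lost with total counts only (adjusted p = 0.194), with limma-trend (adjusted p = 0.0558) and without A101D replicate 2 or MeWo replicate 1, 2, 5, 7 or 8 (adjusted p from 0.0524 to 0.164). TRIM21 rose by 0.56 in A101D (adjusted p = 4.74e-08) and by 0.27 in MeWo (adjusted p = 0.00483). Between the lines 3 were higher and 2 lower, with TRIM21 higher by 0.62 and LARP4 lower by 0.66 in MeWo.

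**Figure D5:**
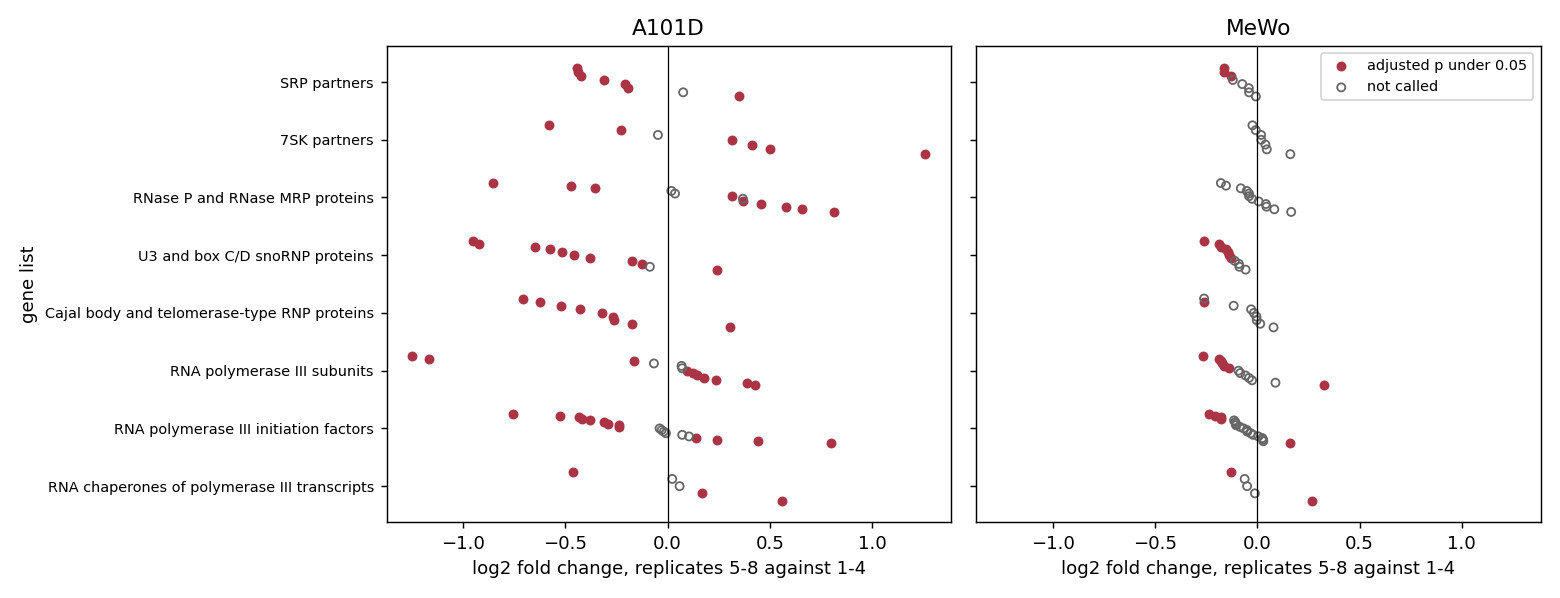
Log2 fold change of each partner gene from replicates 1-4 to 5-8 in A101D and in MeWo, by list, with filled points for an adjusted p under 0.05 and open points for genes not called. In A101D the points spread from -1.25 (POLR3K) to 1.26 (HEXIM1), and in MeWo from -0.27 (POLR3K) to 0.33 (POLR3GL).

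With the members and all their copies by symbol left out, RN7SL4P among them, 10138 genes with a mean of at least 10 CPM were compared. Of these, the genes with the profile most like that of RN7SL1 over the 16 libraries were GSR, SNORA73B and UST. The measure was the root mean square difference of centred log2 CPM, 0.28, 0.29 and 0.30, against a median of 0.55. GSR stood at 126 CPM in A101D replicates 1-4, 82.2 in A101D replicates 5-8, 152 in MeWo replicates 1-4 and 116 in MeWo replicates 5-8. For SNORD3A they were PLEKHA2, TXNDC12 and RPUSD2, at 0.16 each, against a median of 0.39. PLEKHA2 ranged from a mean of 46.2 CPM in A101D replicates 1-4 to 54.4 CPM in MeWo replicates 5-8, so that these nearest profiles are nearly flat.

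Melanocytic markers were present in both lines, summing to 2458 to 3511 CPM per A101D library and 10011 to 11660 per MeWo library, and all 8 had counts. PMEL made up most of the MeWo sum (6096 to 6965 CPM, against 187.1 to 242.7 in A101D), and TYRP1 was nearly absent in A101D (0.254 to 1.71 CPM). DCT and S100B were higher in A101D, DCT at 1225 to 1920 against 412.6 to 550.9 CPM and S100B at 494 to 716.4 against 118.8 to 139.3 CPM. Fibroblast markers (4 genes) summed to 567.6 to 1051 CPM per A101D library and 73.8 to 84.7 per MeWo library, and their part in the results was not tested. Leukocyte, epithelial and endothelial markers summed to at most 2.46 CPM in any library. Total counts ran from 28910881 to 38961862 per library. Mitochondrial genes took 1.71% to 2.33% of counts in A101D and 1.28% to 1.45% in MeWo. MeWo replicate 2 had counts for 34471 genes against 30066 to 31433 in the other MeWo libraries.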

How the data were processed

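Total RNA libraries of 8 A101D and 8 MeWo samples were read from 1 table per line. The submitters' processing notes name Trimmomatic 0.39-1 (a read trimmer), STAR 2.7.1a (an aligner), featureCounts 2.0.0 (a read counter) and GRCh38. No source used here gives the annotation release, the strand setting or the treatment of reads with several placements. Each deposited cell joins a gene identifier and a raw whole-number count (listed as unit other), and both parts were separated. All 16 columns were used. Symbols came from a gene name table (60357 of 60676 identifiers), and positions and transcripts from GENCODE v29, which holds 58503 (96.4%). The sequences of the 7SL genes are not reported here.

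Library sizes were scaled by trimmed means of M-values (trims of 30% and 5%). The 21569 genes tested had 15 counts or more over all libraries and reached 0.298 CPM (10 counts at the median depth) in 4 or more of them. Genes were fitted with limma 3.58.1 in R 4.3.3 (voom, robust empirical Bayes) over 4 group means, with 6 contrasts. Benjamini-Hochberg adjustment was made over all genes tested, within each contrast, with a threshold of 0.05. The planned test, a quasi-likelihood fit of counts, was not run because the deposited cells did not pass as a count column, and limma-voom took its place. Log2 changes are replicates 5-8 minus 1-4, or MeWo minus A101D. The step was tested on simulated counts. Replicates of a line differed by more than sampling noise (lowest chi-square per degree of freedom 1.86), so each library was counted once.

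The members and gene lists were chosen with earlier results of these data known. From each partner list the text names, for each contrast between replicate sets and for the line average, at most the 2 called genes with the largest and the 2 with the smallest change, plus MEPCE, LARP7, FBL, MAF1 and SSB. For the likeness of profiles it names the 3 nearest genes that are neither members nor copies, and of other structured RNAs the 3 of highest level. RN7SL471P, RN7SL5P, the U3 copies and RN7SKP255 were named for their likeness to a member or after their values were seen. Alternatives were other scaling factors, library sizes without the members and copies, other low-count filters, limma-trend, the replicate number as a block, 2 group means, each library left out and counts summed with copies.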

Additional observations from a re-analysis of the deposited data

Results flagged for a closer look

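A single library stood far from the rest of its group, by Dixon's ratio, in 11 of 82 checks of levels and library measures. Chance flags about 1 in 20 groups, but these checks are not independent, since the sums over copies contain single copies that were also checked. RN7SL3 was high in A101D replicate 2 (372.6 CPM, next 291.0) and low in MeWo replicate 5 (83.0, next 123.4), where the sum of all 7SL copies was low too (139.5, next 183.5). A101D replicate 8 was high within its set of 4 for RN7SKP255 (8.17, next 3.35), RN7SKP9 (5.53, next 2.18), RN7SKP203 (3.15, next 1.23), the sum of the 7SK pseudogenes (47.1, next 23.5) and SNORA73B (80.2, next 63.4), and low for SNORD3B-1 (5.61, next 7.81). RN7SL5P was high in A101D replicate 7 (0.859, next 0.728). Genes with a count numbered 34471 in MeWo replicate 2, next 31433.

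The change from replicates 1-4 to 5-8 differed between the lines (limma interaction, adjusted p under the threshold of 0.05) for 28 of the 44 genes checked. Over all genes tested the share was 48.5%. Many of these were named for their change between sets, so the count describes them only. Values are the MeWo change minus the A101D change on the log2 scale. It was below 0 for RN7SL3 (-0.87), SNORD3B-1 (-0.48), BRF2 (-0.85), CCNT1 (-0.34), HEXIM1 (-1.24), IMP3 (-0.33), NOP10 (-0.23), POLR3D (-0.34), POP7 (-0.62), RPP14 (-0.81), SNAPC1 (-0.62), SRP19 (-0.43), SRP68 (-0.21), TRIM21 (-0.30). It was above 0 for DKC1 (0.45), FBL (0.73), GEMIN2 (0.49), GTF3A (0.37), GTF3C5 (0.65), LARP7 (0.27), MEPCE (0.57), NOP56 (0.69), POLR3G (0.99), POLR3K (0.98), RPP30 (0.80), SRP54 (0.40), SRPRA (0.26), SSB (0.33).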

How the results depend on the processing

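The number of genes called in either direction stayed within 1.5 times its value for each comparison and alternative run, while the split by direction moved with the scaling: genes called higher between the MeWo sets numbered 990, 2041 with total counts only and 632 with upper-quartile factors. Of the values of single genes under an alternative, 3515 were counted as the same, 56 lost a call, 48 gained one and 96 changed sign. For tested genes, the same means the same direction and side of the threshold. RN7SL1 was judged by the size of its move against its standard error, and 4 of its values moved. The likeness values were all counted as the same without a check. Leaving out each library in turn gave 18161 to 18615 genes for MeWo against A101D, 13122 to 14237 for the sets of A101D, 1940 to 3756 for those of MeWo and 9880 to 10528 for the difference between the lines. No low-count filter gave 1892 genes for the MeWo sets, against 2825. With the replicate number as a block, 18686 genes were called between the lines and 10559 for the difference between the lines, and RN7SL1 differed by 0.32 between the lines. Libraries sharing a number correlated by -0.02 to 0.08 in their deviations. A101D replicates 2, 4 and 8 correlated best with the MeWo library of their own number, and the other A101D libraries did not. The main fit did not pair libraries by number, and whether those sharing a number were handled together was not tested. The block cannot be fitted with a change between sets.

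Of called values, MEPCE (0.0255), NOP10 (0.16), SCARNA7 (0.21 over both sets, 0.28 in replicates 1-4, 0.14 in replicates 5-8) and SNORD3B-1 within replicates 5-8 (0.25) changed sign in MeWo against A101D with upper-quartile factors, which moved the median of all genes. Values not called with the main settings changed sign too. With upper-quartile factors these were FBL (0.43) and SNORD3C (0.48, and 0.45 in replicates 1-4) between the lines, RN7SL5P within replicates 5-8 (0.49) and MAF1 between the MeWo sets (-0.0403). With total counts only they were MAF1 (0.15) and RN7SL3 (0.117) between the A101D sets, MEPCE between the MeWo sets (0.0474), SNORD3B-1 (-0.0121) between the lines, SNORD3C within replicates 1-4 (0.00699) and 5-8 (-0.0404), and the difference between the lines in change for SRP72 (-0.0631), GTF3C1 (-0.0454), SNAPC2 (-0.0844), MAF1 (-0.0925), SNORA73B (-0.033) and SNORD3C (-0.0474). With median-of-ratios factors they were MAF1 (0.0676) and RN7SL3 (0.0327) between the A101D sets, SNORD3C within replicates 5-8 (-0.02004), and that difference for SRP72 (-0.0366), GTF3C1 (-0.021), SNAPC2 (-0.0597), MAF1 (-0.0673), SNORA73B (-0.0117) and SNORD3C (-0.0153). With limma-trend they were RN7SL5P within replicates 5-8 (0.0102), SNORD3B-1 (-0.00148) and SNORD3C (0.0154) between the lines, and SNORD3B-1 also with the replicate block (-0.00213) and 2 group means (-0.0052).

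Leaving out each library in turn also turned signs of values not called. Between the lines the ranges were -0.0626 to 0.0312 for SNORD3B-1 and -0.116 to 0.11 for SNORD3C. Within replicates 1-4 they were -0.0938 to 0.123 for SNORD3A and -0.255 to 0.145 for SNORD3C, and within replicates 5-8 -0.00085 to 0.216 for RN7SL1, -0.115 to 0.172 for RN7SL5P and -0.136 to 0.261 for SNORD3C. Between the A101D sets they were -0.0683 to 0.161 for SNORD3A, -0.107 to 0.0895 for RN7SL3 and -0.0145 to 0.0284 for MAF1, and between the MeWo sets -0.0391 to 0.0179 for MEPCE and -0.021 to 0.0367 for MAF1. For the difference between the lines in change they were -0.00798 to 0.0733 for SRP72, -0.129 to 0.0146 for POLR3GL, -0.0291 to 0.073 for SNAPC2, -0.0224 to 0.0447 for MAF1, -0.032 to 0.159 for SNORA73B and -0.122 to 0.302 for SNORD3C. The cause of these changes was not tested. SNORD3A was called between the lines with upper-quartile factors (0.58, adjusted p = 0.000121 by limma). A Wald test on counts was not run, for the same reason as the planned test. Depth limits what can be said of copies and 7SK pseudogenes at a few CPM. The members at 0 allow no fit.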
